A study of Oryza sativa with 12 samples.

Results

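The comparison set rice panicles of 5-7 mm from the osmads1 mutant against wild-type panicles of the same length, on 6 of the 12 arrays of the study. The 6 arrays were chosen by genotype and panicle length, and all 57194 probe sets of the 57381 on the array that are not control probe sets were compared. The 3 osmads1 arrays and the 3 wild-type arrays came from biological replicates of plants grown in a paddy field without further treatment. The labels do not give the mutant allele, the cultivar of either genotype or the number of plants behind a sample. The other 6 arrays held the same genotypes at a panicle length of 2 mm, when inner floral organs begin to form. The purpose stated for the design was to learn the roles of OsMADS1 at an early and a late stage of the flower, of which 5-7 mm is the late one.

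OsMADS1 is a transcription factor of the MADS-box family and belongs to its SEPALLATA branch, the E class. E class proteins assemble into complexes with A, B, C and D class proteins, which together specify the organs of the flower. In rice, OsMADS1 is known for its roles in lemma and palea identity, in inner organ identity and in ending the activity of the floret meristem.

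Each value is a log2 level of a probe set (a group of short probes read as 1), so that a difference of 1 is a 2-fold change. Differences are osmads1 minus wild type ± SE. A gene was called when its adjusted p in limma, over all probe sets, was under 0.05. Counts of genes use 1 probe set per gene, the one with the highest mean over the 12 arrays. For every called gene whose 6 arrays are given one by one, the arrays of the 2 genotypes did not overlap. This adds little to a call, since 5756 of the 5850 called genes did not overlap. Over all genes the share was 51.4 percent. The number of arrays limits the precision. The median spread within a group was 0.0859 (SD, log2), and replicate arrays of this length correlated at 0.9954 to 0.9971 across probe sets. RMA values carry no detection call, so the reporter control probe sets served as a guide to dim levels. Their upper quartile lay between 3.793 and 4.004 on the 6 arrays. Where 1 group was at or under that quartile, a fold is given as "at least", computed against the quartile.

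The panicle label was checked against markers. All 10 young panicle genes measured, among them RFL, OSH1 and OsMADS14, read above the reporter range, with group means of 4.78 to 12.00 in osmads1 and 5.98 to 11.62 in wild type. The summed level of 7 leaf and green tissue genes was 9.69 to 10.35 in osmads1 and 9.02 to 9.23 in wild type on the log2 scale, and 1 of the 7 was dim in both genotypes. The summed level of 7 tapetum and microspore genes was 6.96 to 7.07 in osmads1 and 7.70 to 7.81 in wild type. Of these, 2 were dim in both genotypes and only TIP2 was called, lower in osmads1. It had the highest mean of the 7 in both genotypes (4.92 in osmads1, 6.85 in wild type). In whole panicles, fewer cells of a type and less RNA per cell cannot be told apart. Among 187 control probe sets, 9 (4.81 percent) were called. They included 5 for the bacterial thr transcript, all lower in osmads1 (-1.51 to -0.52), and 3 for actin and cyclophilin, all higher (0.35 to 0.46). The part of these readings in the results was not tested.

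The OsMADS1 probe set checked the genotype labels. It read 4.96, 3.85 and 3.49 on the osmads1 arrays and 11.61, 11.51 and 11.48 on the wild-type arrays. The mutant arrays lay in or up to about 1 unit above the dim range and far below every wild-type array. OsMADS1, a gene on chromosome 3, fell by 7.43 ± 0.31 on the log2 scale in osmads1 (adjusted p = 3.48e-09).

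At this stage 12285 of the 57194 probe sets were called (21.5 percent), 5831 higher and 6454 lower in osmads1. The balance between the directions depended on the scaling, with 5620 higher and 5607 lower after quantile normalization of all 12 arrays, and 6098 higher and 5661 lower after median centring. By gene, 5850 of 17905 were called (32.7 percent), 2382 higher (13.3 percent) and 3468 lower (19.4 percent). Quantile normalization gave 2622 genes higher and 3151 lower, and median centring 2396 and 3012. A called change of at least 2-fold was found in 3.42 percent of probe sets, 998 higher and 956 lower, and in 750 genes (4.19 percent), 218 of them higher and 532 lower. The median difference over all genes was -0.017.

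Part of the large differences came with wild type of 5-7 mm apart from all other groups. In 73 probe sets the wild-type mean at 5-7 mm lay at least 3 log2 units from each of the other 3 group means, while those 3 lay within 2 units of each other. The wild-type panicles of 5-7 mm were above the other groups in 36 of these probe sets and below them in 37. The same pattern was found in 7 probe sets for osmads1 at 5-7 mm, in 16 for osmads1 at 2 mm and in 17 for wild type at 2 mm. Of the 190 probe sets called with a difference of at least 3, 109 higher and 81 lower, 73 had this pattern. A level at one length cannot be set directly against a level at the other, since arrays of 5-7 mm had medians of 4.931 to 5.004 and those of 2 mm 4.098 to 4.134. The labels do not give the cultivars, and the source of the pattern was not tested. All 73 were called, so leaving them out only takes them from the count, to 12212 calls, 5794 higher and 6418 lower.

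Examples are genes known by locus name. LOC4344551, on chromosome 8, read 10.38, 10.31 and 10.41 in osmads1 and 3.57, 3.37 and 3.16 in wild type at 5-7 mm, at least 86.4-fold higher in osmads1 (7.00 ± 0.092, adjusted p = 2.63e-14). At 2 mm its means were 9.32 in osmads1 and 9.20 in wild type. The wild-type panicles of 5-7 mm alone were in the dim range. LOC4351117 on chromosome 11 followed the same order, with 5-7 mm means of 10.02 in osmads1 and 3.61 in wild type, and 2 mm means of 9.20 in osmads1 and 9.32 in wild type. The reverse order held for LOC4340976 on chromosome 6, which read 3.60, 3.09 and 3.16 in osmads1 and 10.50, 10.42 and 10.40 in wild type, at least 96.7-fold lower in osmads1 (-7.15 ± 0.17, adjusted p = 8.43e-12). Its 2 mm means of 3.60 in osmads1 and 3.75 in wild type were also low, but the dim range was set on 5-7 mm arrays only. LOC4350996 (-5.82 ± 0.27) and LOC4341223 (-5.67 ± 0.10) were also high in wild type of 5-7 mm alone.

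The 73 probe sets include 30 assigned to 1 gene each, which stand for 23 genes, and 9 of those lie on chromosome 11. Counted over all genes with a difference of at least 3, chromosome 11 held 11 of its 846 measured genes (1.3 percent, 5 higher and 6 lower), against 0.0728 to 0.51 percent on each of the other numbered chromosomes and 0.324 percent over all genes. Some were neighbours. LOC4350154 (-4.29) and LOC4350155 (-5.25) are adjacent on chromosome 11, and LOC4350996 and LOC4350998 (-4.51) are separated there by 1 gene. LOC4340663 (-4.44) and LOC4340664 (-4.04) are likewise separated by 1 gene on chromosome 6. The values of these chromosome 6 genes come from probe sets of a type that can match several transcripts. The osmads1 means of the neighbours named here (2.46 to 3.73) lay under the reporter upper quartile, so their differences are not exact. Only 1 gene of the lists described here, EM, was among the 23.

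A difference of at least 3 in the same direction at both lengths was found in 8 probe sets, 4 higher and 4 lower in osmads1. They include LOC4331398 on chromosome 3, which read 12.10, 12.04 and 12.13 in osmads1 and 3.40, 3.51 and 3.37 in wild type at 5-7 mm, at least 286-fold higher in osmads1 (8.66 ± 0.10, adjusted p = 1.09e-14). Its means at 2 mm were 11.91 in osmads1 and 3.22 in wild type. JAZ2, a repressor of jasmonate signalling, read 9.77, 9.75 and 9.84 in osmads1 and 2.57, 2.72 and 2.44 in wild type. It was at least 57.8-fold higher in osmads1 (7.21 ± 0.090, adjusted p = 1.6e-14), and wild type lay in the dim range at 5-7 mm. Wild type of 2 mm lay there too, but the range was set on 5-7 mm arrays only. Both probe sets are of a type that can match several transcripts. OsMADS1 itself was among the 4 that were lower.

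**Figure D1:**
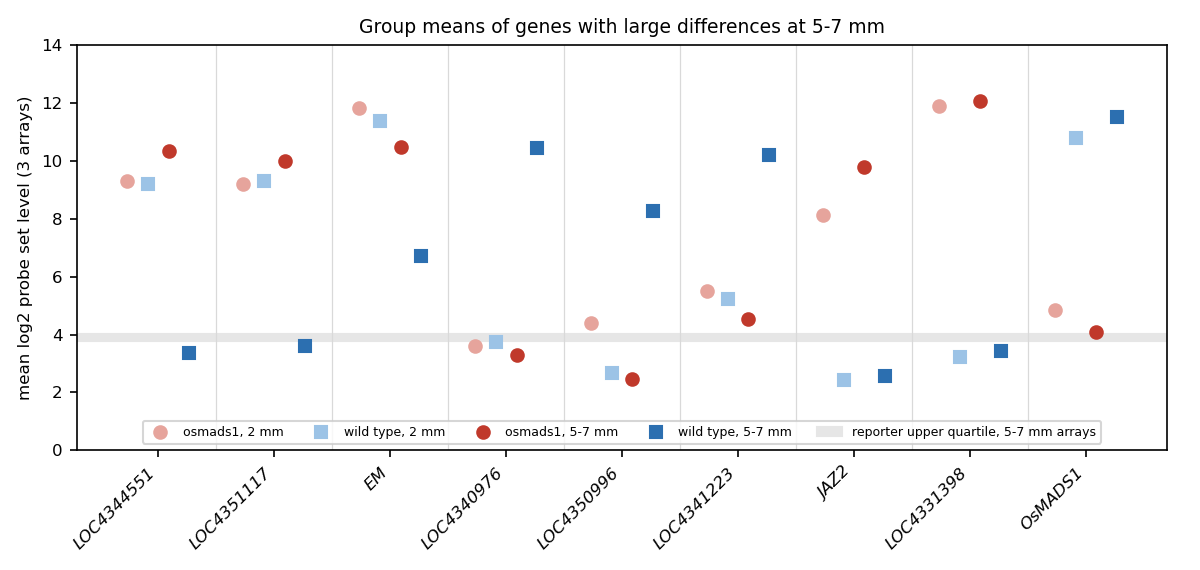
Group mean log2 levels (3 arrays each) of 9 genes with large differences at 5-7 mm, for osmads1 and wild type at 2 mm (pale) and at 5-7 mm (dark). The grey band is the reporter upper quartile of the 5-7 mm arrays. For the first 6 genes wild type of 5-7 mm stands apart from the other 3 groups, as for LOC4344551 at 10.37 in osmads1 and 3.37 in wild type; for JAZ2, LOC4331398 and OsMADS1 the genotypes separate at both lengths.

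Floral MADS-box genes were mostly lower in osmads1. Of the 17 measured besides OsMADS1, 10 were called lower and 2 higher, with a median difference of -0.65, against 32.7 percent of all genes called and a median of -0.017. Lower genes made up all 3 of the B class, 3 of the 4 C and D class genes and 4 of the 6 in the E class and AGL6 groups. The 4 A class genes differed by 0.38 at most, and 1 of them was called.

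Among the E class relatives, OsMADS7 read 9.56, 8.88 and 9.68 in osmads1 and 11.28, 11.10 and 11.47 in wild type, 3.75-fold lower (-1.91 ± 0.20, adjusted p = 1.8e-05). OsMADS8, its close relative in the SEP3 group, read 9.20, 8.63 and 9.24 in osmads1 and 10.77, 10.67 and 11.02 in wild type, 3.48-fold lower (-1.80 ± 0.16, adjusted p = 3.68e-06). For both genes the groups did not overlap, as in 51.4 percent of all genes, and osmads1 replicate 2 was the lowest array, as it was for OsMADS16, OsMADS4 and OsMADS3. The AGL6-type genes OsMADS17 (-1.25 ± 0.13, adjusted p = 1.34e-05) and OsMADS6 (-0.65 ± 0.10, adjusted p = 0.000456), which act in floret meristem and organ identity, were lower too. OsMADS34, an E class gene of inflorescence and spikelet development, was the exception. It read 9.69, 9.68 and 9.92 in osmads1 and 9.27, 9.18 and 8.97 in wild type, higher by 0.62 ± 0.11 (adjusted p = 0.00151). OsMADS5, of the same E class branch as OsMADS1, had a difference of -0.21 ± 0.11 and was not called (adjusted p = 0.199).

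The B class genes specify lodicules and stamens. OsMADS16, the only member of its branch in this list, read 9.64, 8.99 and 9.69 in osmads1 and 10.92, 10.87 and 11.16 in wild type, 2.91-fold lower (-1.54 ± 0.18, adjusted p = 3.61e-05). Its partners OsMADS4 and OsMADS2 had unequal differences, of -1.33 ± 0.15 (adjusted p = 2.93e-05) and -0.52 ± 0.086 (adjusted p = 0.000704). Neither overlapped with wild type, as in 51.4 percent of all genes.

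The C class genes act in stamens, carpels and the ending of the floret meristem. OsMADS58 read 7.32, 7.17 and 7.51 in osmads1 and 8.88, 9.11 and 9.29 in wild type, 3.39-fold lower (-1.76 ± 0.22, adjusted p = 7.25e-05). OsMADS3 was lower by 2.3-fold (-1.20 ± 0.21, adjusted p = 0.0012). The D class gene OsMADS13, which specifies ovules, read 3.52, 3.48 and 3.69 in osmads1 and 5.35, 5.20 and 5.36 in wild type. The mutant arrays were in the dim range, so the change is given as at least 2.75-fold lower (adjusted p = 2.04e-08). OsMADS21 was dim in both genotypes (2.66 in osmads1, 2.76 in wild type).

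Of the A class genes, OsMADS15 was called and higher, at 11.95, 11.98 and 12.07 in osmads1 and 11.77, 11.60 and 11.48 in wild type (0.38 ± 0.081, adjusted p = 0.00415). OsMADS14 (0.15), OsMADS18 (-0.13) and OsMADS20 (-0.36, near the dim range) were not called. OsMADS20 was called when osmads1 replicate 2 was left out (-0.52). Of 13 other MADS-box genes 1 was higher and 2 were lower (23.1 percent called, against 32.7 percent of all genes). In both genotypes 6 of the 13 were dim. OsMADS50, a flowering activator, was higher by 0.72 ± 0.077. OsMADS22 of the SVP group (-0.87 ± 0.16) and OsMADS26 (-1.002 ± 0.14) were lower.

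The difference at 5-7 mm was set against that at 2 mm for these genes in the same model, where 36.3 percent of all genes changed. OsMADS13 had a difference of -1.74 at 5-7 mm and -0.092 at 2 mm, and this change of -1.65 ± 0.13 passed (adjusted p = 8.44e-07). By the dim range of the 5-7 mm arrays OsMADS13 was dim in both genotypes at 2 mm, but no range was set for that length. OsMADS6 was closer to wild type at 5-7 mm than at 2 mm, with a difference of -0.65 at 5-7 mm and -1.88 at 2 mm (change 1.23 ± 0.14, adjusted p = 3.92e-05). OsMADS17 did likewise, at -1.25 and -2.05 at 5-7 and 2 mm (change 0.81 ± 0.18, adjusted p = 0.00563). For OsMADS7 and OsMADS8 the changes were 0.070 ± 0.29 (adjusted p = 0.907) and 0.19 ± 0.23 (adjusted p = 0.639).

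**Figure D2:**
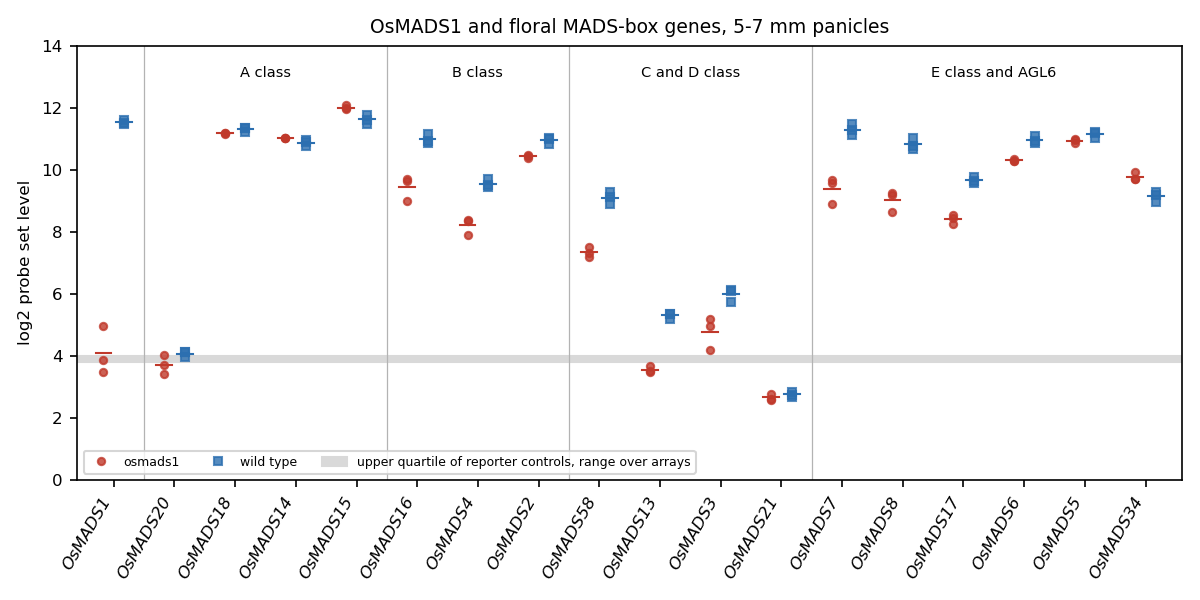
Log2 levels on each 5-7 mm array of OsMADS1 and 17 floral MADS-box genes by class, for osmads1 (red circles, left) and wild type (blue squares, right), with lines at the means of 3 arrays and the reporter upper quartile as a grey band. The B class genes, OsMADS58, OsMADS13, OsMADS3, OsMADS7, OsMADS8, OsMADS17 and OsMADS6 lie lower in osmads1 without overlap, and OsMADS15 and OsMADS34 lie higher. Over all genes 51.4 percent had no overlap.

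Regulators of the inflorescence and spikelet meristem were split. Of 16 measured genes 4 were higher and 6 lower (62.5 percent called, against 32.7 percent of all genes), with a median of -0.12. The number lower was 3 with the variance of each probe set alone or at a threshold of 0.01. With probe sets under the median level left out, the median was 0.020. LAX1, a bHLH factor needed to start axillary and spikelet meristems, read 10.00, 10.48 and 10.12 in osmads1 and 7.94, 8.01 and 7.49 in wild type, 5.23-fold higher (2.39 ± 0.14, adjusted p = 9.96e-08). RFL, the rice LEAFY gene, was 2.39-fold higher, at 11.08, 11.58 and 11.20 in osmads1 and 10.08, 10.11 and 9.91 in wild type (1.26 ± 0.12, adjusted p = 5.85e-06). In both cases every osmads1 array lay above every wild-type array, while 51.4 percent of all genes had no overlap in either direction. FZP, which sets spikelet meristem identity, was at least 1.45-fold higher in osmads1, with wild type in the dim range (adjusted p = 0.0013).

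OsJAG and LOG were among the 6 that were lower. OsJAG, a zinc finger gene of stamen and other lateral organs, read 6.84, 6.78 and 7.14 in osmads1 and 8.02, 8.11 and 8.04 in wild type, lower by 1.14 ± 0.15 (adjusted p = 0.000103). LOG, a cytokinin-activating enzyme of the shoot meristem, was lower by 1.01 ± 0.14 (adjusted p = 0.000136). OsYABBY1 was the only 1 of 7 YABBY genes called (14.3 percent, against 32.7 percent of all genes). It read 11.37, 11.11 and 11.46 in osmads1 and 12.55, 12.57 and 12.31 in wild type (-1.16 ± 0.21, adjusted p = 0.00124). DL, the YABBY gene of carpel identity, had a difference of -0.46 and was not called.

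KNOX genes of class I keep meristem cells undifferentiated. Of 9 KNOX and BELL genes 4 were higher in osmads1, 1 was lower and 4 were not called, with a median of -0.020. Calls made up 55.6 percent, against 32.7 percent of all genes. OSH71 read 10.05, 10.20 and 10.10 in osmads1 and 9.21, 9.20 and 9.09 in wild type (0.95 ± 0.076, adjusted p = 1.42e-06), and OSH6 differed by 0.93 ± 0.084 (adjusted p = 4.37e-06). OSH3 (0.53 ± 0.083) and OSH1 (0.32 ± 0.080) were higher by less. The OSH1 call was lost without wild-type replicate 3 (0.25). HOS58 was lower by 0.26 ± 0.068, a call lost without either osmads1 or wild-type replicate 1.

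Growth-regulating factors, the GRF transcription factors of cell proliferation in young organs, were higher in osmads1 in 7 of 10 measured. That is 70 percent, against 13.3 percent of all genes called higher. All 10 differences were above 0 (0.046 to 0.82), with a median of 0.42. OsGRF10 read 10.43, 10.57 and 10.45 in osmads1 and 9.63, 9.76 and 9.59 in wild type (0.82 ± 0.073, adjusted p = 3.67e-06), and OsGRF1 differed by 0.80 ± 0.096 (adjusted p = 5.09e-05). OsGRF4, at 0.32 ± 0.089, was the weakest, and its call was lost without osmads1 replicate 2 or without wild-type replicate 1 or 2. OsGRF3, OsGRF6 and OsGRF11 had differences of 0.13, 0.05 and 0.07 and were not called.

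The PCF genes of the TCP family, factors that bind promoters of proliferation genes, were lower in osmads1 in 5 of 7 measured. This share of 71.4 percent stands against 19.4 percent of all genes called lower. All 7 differences were below 0 (-1.08 to -0.019), with a median of -0.54. PCF8 read 8.24, 7.89 and 8.29 in osmads1 and 9.02, 9.29 and 9.36 in wild type (-1.08 ± 0.17, adjusted p = 0.00045), and PCF3 was lower by 1.06 ± 0.18 (adjusted p = 0.000732). The PCF5 call was lost without any 1 of 5 of the 6 arrays.

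SPL genes, squamosa promoter binding factors of panicle branching and grain shape, went in both directions. Of 12 measured, 5 were lower, 2 higher (1 without wild-type replicate 2) and 5 not called, with a median of -0.31. Calls made up 58.3 percent, against 32.7 percent of all genes. SPL16, known for grain width, differed by -0.72 ± 0.16 and OsSPL14, known for panicle branching, by -0.36 ± 0.091. OsLG1, the liguleless gene that also affects panicle shape, went the other way. It read 7.34, 7.72 and 7.52 in osmads1 and 6.23, 6.17 and 6.16 in wild type (1.34 ± 0.10, adjusted p = 1.03e-06).

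DNA replication genes were higher in osmads1 at this stage. The list was drawn up after the values were seen. Of 30 measured, 21 were higher and 1 was lower (73.3 percent called, against 32.7 percent of all genes), with a median of 0.58. OsMCM7, a subunit of the helicase that opens the origin, read 10.82, 10.84 and 10.89 in osmads1 and 9.41, 9.67 and 9.34 in wild type, 2.6-fold higher (1.38 ± 0.10, adjusted p = 9.05e-07). MCM2 to MCM6 differed by 0.96, 1.01, 1.17, 1.22 and 1.19, and all 5 were called.

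Origin and fork proteins were among the rises. OsORC3, of the origin recognition complex, read 7.78, 7.85 and 8.05 in osmads1 and 6.68, 6.63 and 6.31 in wild type (1.35 ± 0.13, adjusted p = 9.21e-06). OsRPA32 and OsRPA70b, which coat single-stranded DNA, differed by 1.34 ± 0.10 and 1.21 ± 0.091, and the sliding clamp OsPCNA by 1.002. The exception was OsRPA32-3 at -0.50. OsORC1 (0.25), OsORC2 (-0.05) and the nucleases FEN1A (0.17) and FEN1B (0.07) were not called. At 2 mm the order was the reverse for OsMCM7, with means of 8.11 in osmads1 and 8.85 in wild type (adjusted p = 0.000382), and for OsORC3, with 5.37 in osmads1 and 6.23 in wild type (adjusted p = 0.000781).

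The wider cell cycle list of 95 genes, which holds many of these, had 27 higher and 9 lower, with a median of 0.084. With 37.9 percent called it was near the 32.7 percent of all genes. Outside replication the members were spread around 0. The mitotic cyclins CYCB1-1 (-0.14), CYCB2-1 (0.02) and CYCB2-2 (-0.15) were not called. The G1 cyclins CYCD2-2 (0.58), CYCD4-2 (0.48) and CYCD5-3 (0.59) were higher and CYCD5-2 (-0.37) was lower. Of the cyclin-dependent kinase inhibitors, KRP5 was higher (0.66) while KRP4 (-0.29) and KRP6 (-0.37) were lower. EL2, an inhibitor of cyclin-dependent kinases of the SIAMESE type, was outside this list. It read 7.74, 7.31 and 7.60 in osmads1 and 10.72, 10.50 and 10.56 in wild type, 8.24-fold lower (-3.04 ± 0.13, adjusted p = 3.83e-09).

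In the list of abscisic acid and dehydration genes more were lower than higher, and 37 of 76 were not called. Abscisic acid binds PYL receptors, which then hold certain PP2C phosphatases and free SAPK kinases to switch on dehydrins and other protective genes. The list took PP2C phosphatases by name (55 of the 76 genes), and which of them act in this pathway was not tested. Of 76 genes measured, 31 were lower and 8 higher (51.3 percent called, against 32.7 percent of all genes), with a median of -0.17. The number higher was 5 without osmads1 replicate 1 or wild-type replicate 2, and 14 when probe sets under the median level were left out.

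The dehydrin RAB16B read 3.71, 3.52 and 3.71 in osmads1 and 6.89, 6.32 and 6.26 in wild type, at least 6.26-fold lower, with the mutant in the dim range (adjusted p = 1.72e-05). RAB21, another dehydrin, read 5.75, 5.74 and 5.81 in osmads1 and 8.15, 7.84 and 7.87 in wild type (-2.19 ± 0.36, adjusted p = 0.000674). The dehydrins rab25 (-1.27) and OsDhn1 (-0.69) and the late embryogenesis gene LEA3 (-0.76) were lower as well, while RAB16C (-0.29) and RAB16D (0.26) were not called. EM, a late embryogenesis protein, went against the list at 10.24, 11.05 and 10.12 in osmads1 and 7.02, 6.79 and 6.33 in wild type (3.76 ± 0.24, adjusted p = 1.73e-07). EM is 1 of the 23 genes in which wild type of 5-7 mm stood apart, with 2 mm means of 11.84 in osmads1 and 11.40 in wild type.

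PP2C phosphatases made up most of the list, and 21 of 55 were lower and 5 higher (47.3 percent called, against 32.7 percent of all genes). The number higher was 3 without osmads1 replicate 1 or wild-type replicate 2, 9 after quantile normalization, and 8 or 10 with the filters on dim probe sets. OsPP2C30 read 7.47, 7.45 and 7.34 in osmads1 and 9.71, 9.58 and 9.69 in wild type, 4.73-fold lower (-2.24 ± 0.18, adjusted p = 1.48e-06). OsPP2C02 (-2.05 ± 0.12, adjusted p = 5.89e-08) and OsPP2C09 (-1.95 ± 0.10, adjusted p = 3.32e-08) followed. OsPP2C36 was the largest rise of the phosphatases at 0.98 ± 0.10. The hormone's breakdown gene OsABA8ox1 was lower (-1.44) and OsABA8ox2 higher (0.48). Among the SAPK kinases OsSAPK1 (-0.50), OsSAPK4 (-0.45) and OsSAPK9 (-0.28) were lower and OsSAPK7 (0.35) was higher.

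Several transcription factor families held large falls beside genes that were not called. OsNAC6, a stress-induced NAC factor, read 4.49, 4.53 and 4.51 in osmads1 and 7.93, 7.70 and 7.95 in wild type, 10.2-fold lower (-3.35 ± 0.13, adjusted p = 2.21e-09). In all 4 of 8 NAC genes were lower (50 percent called, against 32.7 percent of all genes). The others were NAC068 (-2.33 ± 0.15), OsNAC3 (-1.85 ± 0.12) and OsNAC5 (-1.22 ± 0.084). The remaining 4 had differences of 0.07 to 0.47 and were not called by limma, although OsNAC2 and OsNAC7 had unadjusted p of 0.0118 and 0.0171. Of the 8, 2 were dim in both genotypes. The median of the list was -0.57, and -1.85 or -2.09 with the filters on dim probe sets. The number called higher was 2 after median centring or without wild-type replicate 3, and 1 without osmads1 replicate 2. OsbZIP23, a regulator of the abscisic acid response, differed by -1.36 ± 0.12. Of 22 bZIP genes 8 were lower and 2 higher (45.5 percent called). Of 25 HOX genes 8 were lower and 4 higher (48 percent called). The homeodomain leucine zipper genes OsHox24 and OsHox22 were at least 1.86-fold and at least 1.76-fold lower. Of 10 ERF and DREB genes 3 were lower and 1 higher (40 percent called), and 6 were not called. DREB1A, of the cold response, read 4.16, 4.23 and 3.52 in osmads1 and 6.12, 6.45 and 5.55 in wild type (-2.07 ± 0.21, adjusted p = 1.28e-05).

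Other factor families were mixed. Of 10 MYB genes 4 were lower and 1 higher (2 without osmads1 replicate 3), which is 50 percent called. The falls were led by OsMYBS1, a sugar-responsive factor, at 4.35, 5.13 and 4.84 in osmads1 and 6.75, 6.64 and 6.88 in wild type (-1.98 ± 0.16, adjusted p = 1.53e-06). Of 14 bHLH genes 5 were higher and 3 lower (57.1 percent called, against 32.7 percent of all genes). After LAX1 the rises were led by RAI1, a factor of the immune response (1.48 ± 0.19, adjusted p = 0.000103), and OsBCL1 (1.40 ± 0.085, adjusted p = 1.17e-07). Of 6 WRKY genes 2 were lower (33.3 percent, against 32.7 percent of all genes called), or 4 without wild-type replicate 2, and all 6 differences were below 0.

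**Figure D3:**
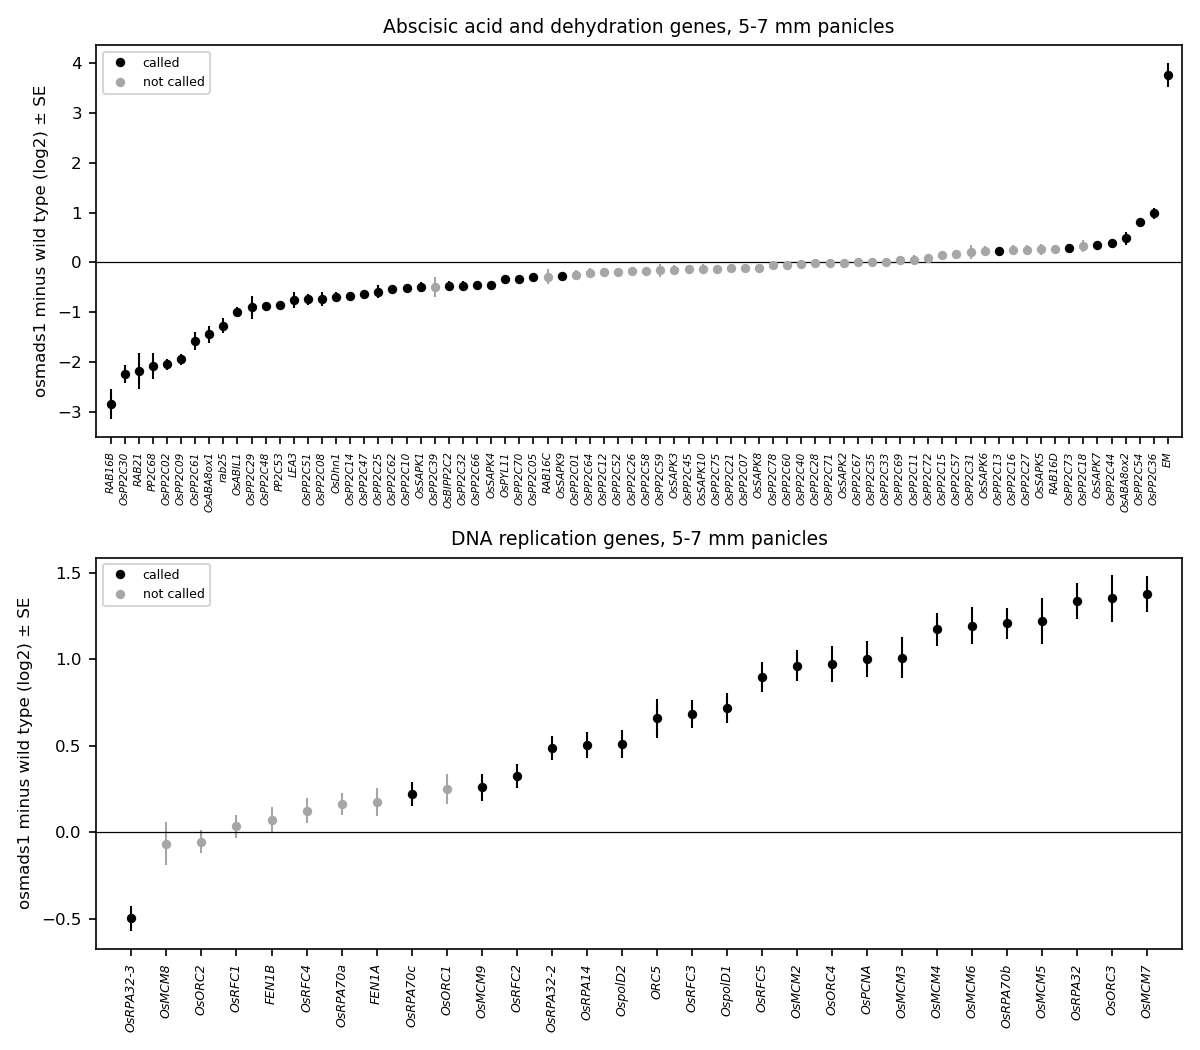
Differences (osmads1 minus wild type, log2, ± SE) at 5-7 mm for each measured gene of the abscisic acid and dehydration list (top, 76 genes) and of the DNA replication list (bottom, 30 genes), sorted by size, with called genes in black and others in grey. In the top panel 31 called genes lie below 0 and 8 above, EM alone past 3; in the bottom panel 21 called genes lie above 0 and 1 below.

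The largest fall of a named gene after OsMADS1 was that of OsWRKY71, a WRKY factor of defence and of gibberellin and abscisic acid signalling. It read 4.15, 4.22 and 4.11 in osmads1 and 8.89, 7.57 and 8.94 in wild type, 19.8-fold lower (-4.31 ± 0.28, adjusted p = 2.11e-07). BC1L9, a COBRA-like gene, read 3.74, 4.08 and 3.84 in osmads1 and 8.49, 6.84 and 8.21 in wild type (-3.96 ± 0.34, adjusted p = 2.96e-06). AMY1.3, an alpha-amylase, read 3.02, 3.45 and 3.23 in osmads1 and 8.09, 5.41 and 7.01 in wild type, at least 7.97-fold lower (adjusted p = 0.000448). In these 3 genes wild-type replicate 2 was the lowest of its group, and osmads1 was in or near the dim range. Without that array the AMY1.3 difference was -4.31, and without wild-type replicate 1 it was -2.97, against -3.60 with all arrays.

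The next large falls were in genes of different families. OsC3H37, a CCCH zinc finger gene, read 7.07, 7.10 and 7.33 in osmads1 and 10.76, 10.36 and 10.45 in wild type, 10.2-fold lower (-3.35 ± 0.13, adjusted p = 1.15e-09). Of 50 CCCH genes 13 were lower and 8 higher (42 percent called, against 32.7 percent of all genes), and the number higher was 5 without osmads1 replicate 2 or 3 and 4 without wild-type replicate 3. OsC3H33 (-1.90) and OsDOS, a gene known to delay leaf senescence (-1.86), followed OsC3H37. GRXS5, a glutaredoxin, differed by -3.15 ± 0.17 (adjusted p = 4.17e-08). The calmodulin-like gene CML16 differed by -3.07 ± 0.23 (adjusted p = 7.39e-07). The list of 23 calmodulin-like genes was drawn up after the values were seen. It had 7 lower, 2 higher (1 without osmads1 replicate 3 or wild-type replicate 1) and 14 not called, or 39.1 percent called. OsPSY3, a phytoene synthase that feeds the abscisic acid precursor pathway, differed by -2.47 ± 0.15 (adjusted p = 1.21e-07).

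Several of these genes were not lower in the mutant at the earlier length. OsC3H37 had 2 mm means of 10.48 in osmads1 and 8.76 in wild type, and the change of its difference, -5.07 ± 0.18, passed (adjusted p = 7.42e-10). OsNAC6 had 2 mm means of 8.40 in osmads1 and 7.09 in wild type (change -4.66 ± 0.19, adjusted p = 3.2e-09). The changes for OsWRKY71 (-4.80 ± 0.39), BC1L9 (-4.37 ± 0.49), AMY1.3 (-4.41 ± 0.80) and GRXS5 (-3.80 ± 0.24) passed as well. The 2 comparisons share no arrays, but levels at the 2 lengths are on different scales.

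Trehalose and sugar genes were split. Of 42 sugar genes 8 were lower and 5 higher (31 percent called, against 32.7 percent of all genes). The number higher was 3 without replicate 1 of either genotype. In both genotypes 9 of the 42 were dim, against 1715 of all 17905 genes. The trehalose phosphate phosphatases OsTPP7 (-2.56 ± 0.58, adjusted p = 0.00626), OsTPP1 (-2.34 ± 0.33, adjusted p = 0.000209) and OsTPP9 (-1.94 ± 0.11, adjusted p = 5.89e-08) were lower. OsSWEET15, a sucrose exporter, read 6.63, 7.33 and 6.83 in osmads1 and 4.28, 4.43 and 4.11 in wild type, 6.31-fold higher (2.66 ± 0.16, adjusted p = 1.08e-07). Its 2 mm means were 6.31 in osmads1 and 7.19 in wild type, and the change of 3.54 ± 0.23 passed. Of the cell wall invertases, OsCIN2 was higher (0.74) and OsCIN1 lower (-0.81).

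**Figure D4:**
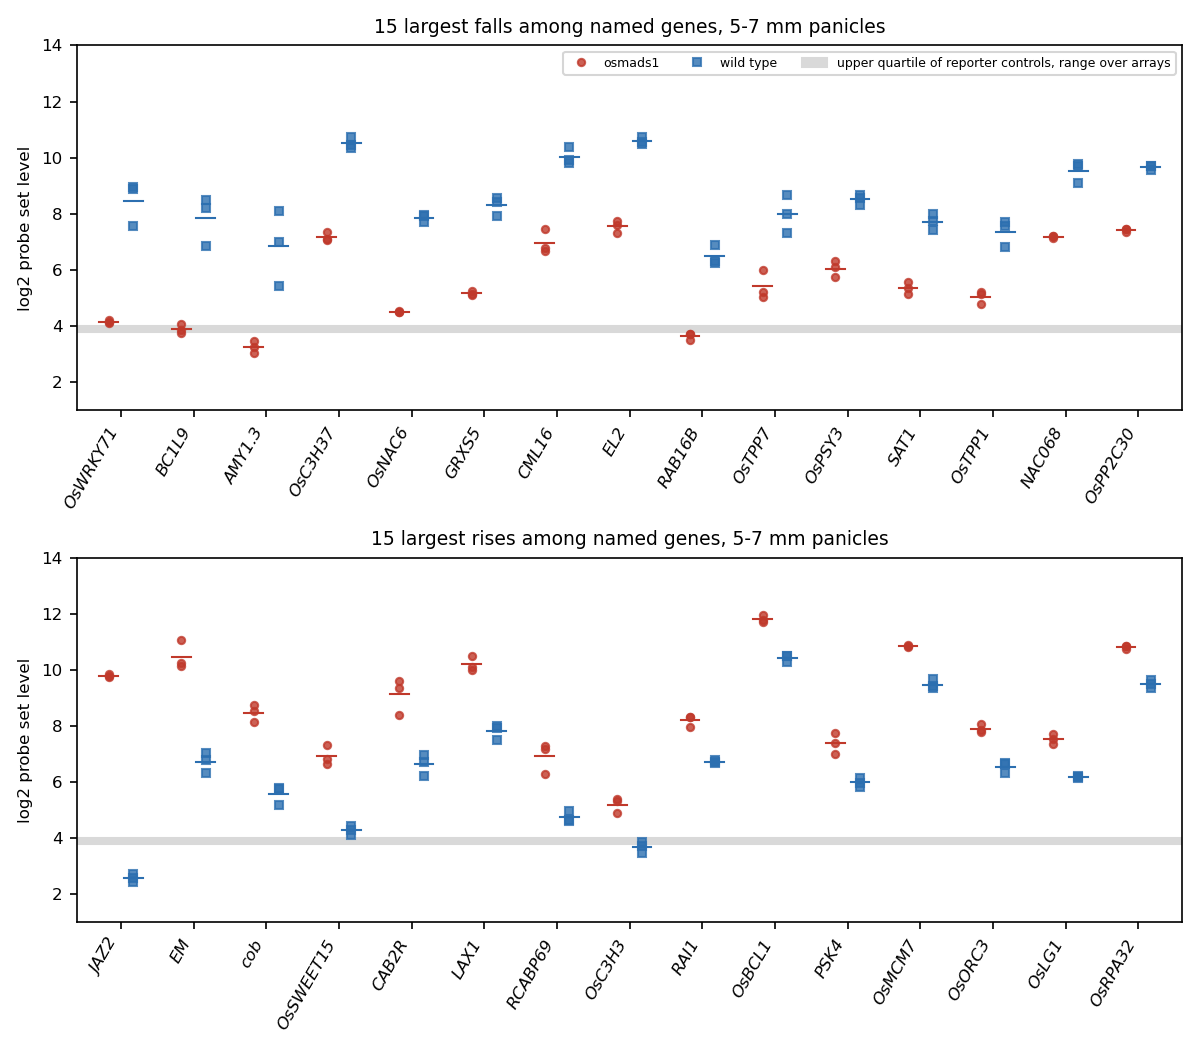
Log2 levels on each 5-7 mm array of the 15 named genes with the largest falls (top, OsMADS1 left out) and the 15 with the largest rises (bottom), for osmads1 (red circles, left) and wild type (blue squares, right), with lines at the means of 3 arrays and the reporter upper quartile as a grey band. The groups do not overlap in any panel entry, by the rule that chose them; wild-type replicates are widest for OsWRKY71, BC1L9, AMY1.3 and OsTPP7.

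Hormone genes other than those of abscisic acid changed in both directions. Of 58 auxin genes 15 were higher and 10 lower (43.1 percent called, against 32.7 percent of all genes), with a median of 0.096. Aux/IAA repressors were among the rises. IAA2 read 10.28, 10.45 and 10.39 in osmads1 and 9.61, 9.33 and 9.19 in wild type (0.999 ± 0.13, adjusted p = 9.21e-05), and IAA7, IAA31, IAA13 and IAA6 differed by 0.89, 0.89, 0.86 and 0.80. The auxin exporter OsPIN3a was lower, at 7.71, 7.38 and 7.79 in osmads1 and 9.05, 8.98 and 9.17 in wild type (-1.44 ± 0.10, adjusted p = 4.3e-07). Of the auxin-conjugating enzymes OsGH3-4 was lower (-1.17 ± 0.13) and OsGH3-8 higher (0.79 ± 0.15).

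Of 32 cytokinin genes 6 were higher and 8 lower (43.8 percent called, against 32.7 percent of all genes). The number lower was 5 without osmads1 replicate 1. The type-A response regulators OsRR4 (0.87 ± 0.14), OsRR9 (0.84 ± 0.11), OsRR2 (0.59 ± 0.13) and OsRR1 (0.53 ± 0.12), which are induced by the hormone, were higher. LOGL5, a cytokinin-activating enzyme like LOG, was lower (-0.72 ± 0.11). OsCKX5, a cytokinin oxidase, differed by -0.68 ± 0.17, a call lost without osmads1 or wild-type replicate 1.

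Of 10 gibberellin genes 4 were lower and 2 higher (60 percent called, against 32.7 percent of all genes). The number higher was 1 without wild-type replicate 2 or 3. EUI1, which inactivates gibberellins, read 4.81, 4.76 and 4.72 in osmads1 and 5.83, 6.10 and 5.79 in wild type (-1.14 ± 0.083, adjusted p = 6.12e-07). The receptor GID1 (-0.63 ± 0.084), the biosynthetic gene OsKO2 (-0.68 ± 0.10) and the DELLA-like gene SLRL1 (-0.51 ± 0.12) were also lower. OsKS1 (0.29) and OsKAO (0.30), both of the biosynthetic pathway, were higher.

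Of 35 jasmonate genes 6 were higher and 8 lower (40 percent called, against 32.7 percent of all genes). The JAZ repressors did not move as 1 group. Besides JAZ2, JAZ8 was higher (1.16 ± 0.085, adjusted p = 6.31e-07). JAZ10 read 6.72, 6.99 and 6.80 in osmads1 and 8.24, 8.45 and 8.33 in wild type (-1.50 ± 0.17, adjusted p = 2.83e-05), and JAZ13 was lower by 1.29 ± 0.27. The lipoxygenase LOX1.1 was lower by 1.63 ± 0.23. Of 11 ethylene genes 5 were lower and 1 higher (54.5 percent called), led by the ethylene-forming oxidase ACO1 (-1.36 ± 0.15, adjusted p = 2.13e-05). The brassinosteroid synthesis genes OsCYP85A1 (0.82 ± 0.069) and D11 (0.81 ± 0.099) were the 2 higher of 5 measured (40 percent called).

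Anther and meiosis genes are given beside the 32.7 percent of all genes called. Of 11 anther and tapetum genes 1 was higher and 2 were lower (27.3 percent). TIP2, a bHLH factor of tapetum differentiation, read 4.52, 4.81 and 5.42 in osmads1 and 6.77, 6.84 and 6.94 in wild type (-1.94 ± 0.17, adjusted p = 3.14e-06). OsTDL1A, the ligand of the MSP1 receptor kinase that limits sporogenous cells, was lower by 0.78 ± 0.18 (adjusted p = 0.00627). MSP1 itself was higher by 0.25 ± 0.074 (adjusted p = 0.0267), and leaving out replicate 1 or 2 of either genotype ended that call.

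The later tapetum genes RAFTIN1 (-0.14), C6 (0.03), CYP703A3 (-0.13) and TDR (-0.19) were not called. They are among the 7 tapetum and microspore markers, of which 2 were dim in both genotypes. All 4 had means below those of TIP2 (4.92 in osmads1, 6.85 in wild type), so a missing call says little about them. Of 10 meiosis genes 2 were higher and 2 lower (40 percent), and 2 in all when replicate 1 of either genotype or osmads1 replicate 2 was left out. OsMEL1, a germ cell Argonaute, read 10.67, 10.75 and 10.87 in osmads1 and 11.51, 11.47 and 11.59 in wild type (-0.76 ± 0.13, adjusted p = 0.000707). CRC1, of chromosome pairing, was higher by 0.54 ± 0.10 (adjusted p = 0.0019). OsMEL1 belongs also to the small RNA pathway. There 8 of 17 genes were lower and 1 was higher (52.9 percent called, against 32.7 percent of all genes). The Argonautes OsAGO17 (-0.78 ± 0.093), OsAGO18 (-0.69 ± 0.12) and OsAGO2 (-0.57 ± 0.075) were also lower.

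Photosynthesis genes had 4 of 19 higher and 1 lower (26.3 percent called, against 32.7 percent of all genes). Without osmads1 replicate 2, 8 were higher and the median was 0.14, against 0.029 with all arrays. CAB2R, a chlorophyll-binding protein of the light-harvesting antenna, read 9.61, 8.40 and 9.36 in osmads1 and 6.98, 6.20 and 6.71 in wild type, 5.64-fold higher (2.50 ± 0.41, adjusted p = 0.000625). RCABP69, of the same family, read 7.29, 6.29 and 7.19 in osmads1 and 4.98, 4.64 and 4.62 in wild type (2.17 ± 0.35, adjusted p = 0.000509). For both, osmads1 replicate 2 was the lowest of its group. The leaf marker sum given above was higher in osmads1, but it includes CAB2R and so is partly the same reading. Of its 7 genes 2 were called, CAB2R and LFNR1 (0.80 ± 0.086), and its part in this result was not tested. The mitochondrial gene cob, for cytochrome b, was 7.48-fold higher (2.90 ± 0.17, adjusted p = 7.8e-08), read by a probe set that can match several transcripts.

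Among wall and membrane genes, all 3 lists held calls in both directions. Of 30 wall-loosening genes 10 were lower (6 without wild-type replicate 2) and 2 higher (1 without replicate 1 of either genotype). This was 40 percent called, against 32.7 percent of all genes. The falls were led by OsEXLA2, an expansin-like gene (-1.32 ± 0.17, adjusted p = 7.45e-05), and the expansin OsEXP5 (-0.73 ± 0.091). Of 56 cellulose and wall genes 9 were lower and 6 higher (26.8 percent called, against 32.7 percent of all genes). The number higher was 3 without osmads1 replicate 2. In both genotypes 10 of the 56 were dim, against 1715 of all 17905 genes. After BC1L9 the largest differences were those of OsCAD8C (-0.79 ± 0.092) and OsCslC1 (-0.65 ± 0.090). Of 25 aquaporins 5 were lower and 5 higher (40 percent called). The number higher was 3 without wild-type replicate 1 or 2 and 1 without wild-type replicate 3. The tonoplast aquaporin OsTIP2;2 read 11.57, 11.50 and 11.51 in osmads1 and 12.74, 12.60 and 12.73 in wild type (-1.16 ± 0.093, adjusted p = 1.42e-06), while the plasma membrane aquaporins OsPIP2;4 (0.63 ± 0.15) and OsPIP2;1 (0.31 ± 0.087) were higher. The OsPIP2;1 call was lost without replicate 3 of either genotype.

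Of 74 nutrient transporters 19 were lower and 6 higher (33.8 percent called, close to the 32.7 percent of all genes). However, 17 of the 74 were dim in both genotypes, against 1715 of all 17905 genes. The phosphate transporter OsPht1;1 led the falls (-1.45 ± 0.21, adjusted p = 0.000257). Of 25 heat shock proteins 7 were higher and 3 lower (40 percent called), with OsHsp18.6 (0.93 ± 0.089) and OsHsp18.0 (0.86 ± 0.12) in front. The number higher was 4 without any 1 array other than osmads1 replicate 1, and 1 was lower when replicate 1 of either genotype or osmads1 replicate 2 was left out. Of 24 ribosomal protein genes 2 were higher and 2 lower, or 16.7 percent, below the 32.7 percent of all genes. Heat stress factors had 3 of 20 lower and 1 higher (20 percent called).

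**Figure D5:**
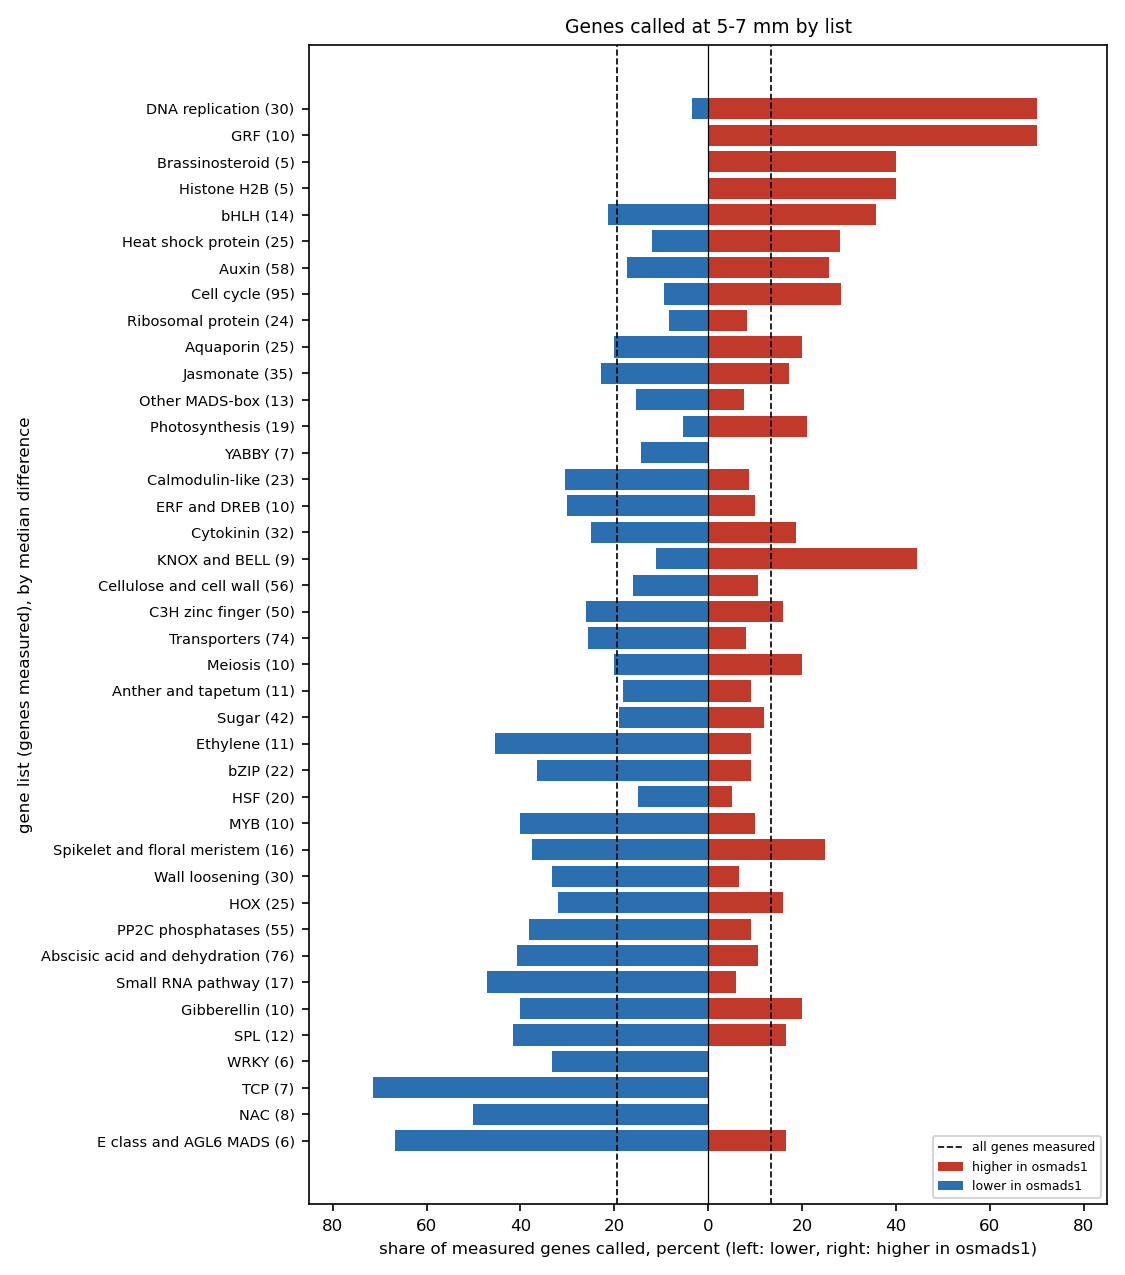
Share of measured genes called at 5-7 mm in each list of at least 5 genes, in percent, with genes lower in osmads1 to the left and higher to the right, lists ordered by median difference and dashed lines at the shares over all genes (19.4 percent lower, 13.3 percent higher). DNA replication (21 of 30 higher) and GRF (7 of 10 higher) lie at the top, and TCP (5 of 7 lower), NAC (4 of 8 lower) and the E class and AGL6 genes (4 of 6 lower) at the bottom.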

How the data were processed

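Total RNA of panicles was hybridised to Affymetrix rice arrays after 3' amplification, per the labels' protocols. The values deposited by the authors are log2 levels per probe set. Partek and RMA appear in the submitters' processing notes, without versions. Control probe sets (187) were fitted apart. Platform annotation, updated through a reference gene table (assembly ASM3414082v1, used for names, chromosomes and neighbours only), gave 17905 genes. In limma 3.58.1 (R 4.3.3), all 12 arrays entered 1 model with 1 mean per group (residual degrees of freedom 8, prior 4.74), and p-values were two-sided and Benjamini-Hochberg adjusted. Lists were built from gene names, have no test and are described by counts and medians. The 32.7 percent of all genes includes 1715 genes dim in both genotypes. Lists with few such genes, as the abscisic acid list with 0 of 76, were not given a share matched by level. Named genes were OsMADS1, the floral MADS-box genes, the 15 largest rises and falls among called genes with an informative name and no overlap, up to 8 members of each list, called ones first, and the 3 largest rises and falls by locus name. Members and neighbours of these given only as short values were chosen after their values were seen. The members and lists were chosen with earlier results of these data known. Same-numbered samples did not deviate together (correlations -0.0292, 0.0737 and -0.0684), so that no pairing was used. The code was tested on simulated data. Alternatives were quantile normalization, median centring, filters on dim probe sets, the 6 arrays alone, other variance models, array weights, a replicate block, 1 probe set per gene, a stricter threshold and leaving out each array. Figures used matplotlib 3.10.9.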

Additional observations from a re-analysis of the deposited data

Results flagged for a closer look

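For 17 named genes the difference between osmads1 and wild type at 5-7 mm departed from that at 2 mm, by limma's test of the change itself, in which 36.3 percent of all genes passed. Among MADS-box genes the changes (5-7 mm minus 2 mm, log2) were -1.49 for OsMADS1, 0.44 for OsMADS15, -1.65 for OsMADS13, 1.23 for OsMADS6 and 0.81 for OsMADS17. The osmads1 arrays of 5-7 mm read OsMADS1 in or near the dim range, and levels of the 2 lengths are on different scales. How far the OsMADS1 change reflects those scales was not tested. The OsMADS1 change (adjusted p = 0.027) was lost without osmads1 replicate 2 (adjusted p = 0.0634) or 3 (0.056) or wild-type replicate 1 (0.057) of 5-7 mm, without 3 of the 2 mm arrays, and under 2 other variance models (0.0841 and 0.0978).

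The changes of the leading rises were 1.50 for JAZ2, 3.32 for EM, 3.57 for cob, 3.54 for OsSWEET15, 2.11 for CAB2R and 2.85 for LAX1. The changes of the leading falls were -4.80 for OsWRKY71, -4.37 for BC1L9, -4.41 for AMY1.3, -5.07 for OsC3H37, -4.66 for OsNAC6 and -3.80 for GRXS5. The CAB2R change (adjusted p = 0.0177) was lost under the same 2 variance models (0.066 and 0.0776). Levels of the 2 lengths are on different scales, and the causes of these changes were not tested.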

How the results depend on the processing

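Alternatives left between 9377 (the 6 arrays alone) and 13488 calls (intensity trend and robust prior), against 12285. A test on 1 probe set per gene, with fewer probe sets tested, called 7343 (3092 higher, 4251 lower), and a threshold of 0.01 called 7627 (3590 higher, 4037 lower). The change from 2 mm had 12750 calls (6487 higher, 6263 lower), against 7952 (3817 and 4135) with 1 probe set per gene and 8194 (4089 and 4105) at 0.01. Leaving out 1 array gave 9907 to 11693 calls at 5-7 mm, 4641 to 5522 higher and 5192 to 6171 lower, and 10887 to 12634 for the change. The replicate numbers share only a label: the replicate block gave 10894 calls and 11345 for the change. No named gene reversed its direction in 4281 recomputed values. Of 254 named genes 11 to 24 lost their call without a given array, and 40 at 0.01. Genes called on the lists numbered 386, and 290 to 434 under the alternatives. Control calls stayed at 9 with quantile normalization. The exclusion of the 73 probe sets in which wild type of 5-7 mm stood apart was chosen after seeing the data. RMA gives no detection call, so differences of dim genes are not exact. OsETR2 has 2 probe sets with opposite calls (-0.50 and 0.56), and 28 named genes are read by probe sets that can match several transcripts.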
